A study of Rattus norvegicus with 10 samples.

Results

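The genes described here encode the beta1, beta2, gamma1, gamma3, epsilon and theta subunits of the GABA-A receptor, and are matched by symbol (*Gabrb1*, *Gabrb2*, *Gabrg1*, *Gabrg3*, *Gabre* and *Gabrq*). All 6 symbols have 1 row each in the table of 12828 genes. RNA-seq was carried out on the arcuate nucleus (ARC), a nutrient-sensing nucleus of the mediobasal hypothalamus, of 10 Wistar rat mothers at parturition. During pregnancy 5 dams were fed an AIN-93G diet with 5X the recommended folic acid (5X-FA) and 5 dams an equimolar 5X quantity of [6*S*]-5-methyltetrahydrofolic acid (5X-MTHF), the reduced form of folate. The dams were in their first pregnancy and were fasted before termination, and the ARC was cut free hand from frozen coronal slices.

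The GABA-A receptor is a chloride channel of the plasma membrane that opens when GABA, the main inhibitory transmitter of the adult brain, binds to it. Each channel is a ring of subunits, most often alpha and beta subunits with a gamma or a delta subunit. GABA binds where a beta subunit meets an alpha subunit, and benzodiazepines bind where an alpha meets a gamma subunit. Epsilon and theta are rarer subunits known for their expression in the hypothalamus and the brainstem, and channels that hold epsilon are insensitive to benzodiazepines.

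The level of each gene is the authors' average log2 CPM, the base-2 logarithm of CPM (a gene's reads scaled to the size of the library). There is 1 value per gene, and its header names no library. The value is taken here as an average over all libraries of both diets. It is not divided by transcript length, so that it gives the reads behind a gene and does not order the subunits by their number of transcripts. The 10 columns with a value per library are headed by bare numbers that match no sample label, and they were not used. The diets were therefore not compared here, no spread between dams is given, and library depths cannot be read from the averages.

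The 2 beta subunits form the GABA-binding face of the channel together with an alpha subunit. *Gabrb1* (ENSRNOG00000002327) has an average log2 CPM of 5.43, equal to 43.2 CPM, and 60.1% of the genes in the table have fewer reads. *Gabrb2* (ENSRNOG00000003680) has an average log2 CPM of 6.49, equal to 89.9 CPM, and 80.2% of the genes have fewer reads. Both beta subunit genes thus lie above the median of the table, which is 4.94 on the log2 scale or 30.7 CPM.

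The gamma subunits help to place receptors at synapses and, with an alpha subunit, form the benzodiazepine site. *Gabrg1* (ENSRNOG00000002360) has an average log2 CPM of 6.90, equal to 119 CPM, and 85.6% of the genes have fewer reads. *Gabrg3* (ENSRNOG00000014862) has an average log2 CPM of 3.69, equal to 12.9 CPM, and 25.6% of the genes have fewer reads. The 2 gamma genes therefore fall on opposite sides of the table's median.

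*Gabre* (ENSRNOG00000061182), the epsilon subunit gene, has an average log2 CPM of 4.49, equal to 22.5 CPM, and 40.3% of the genes have fewer reads. *Gabrq* (ENSRNOG00000053402), the theta subunit gene, has an average log2 CPM of 4.13, equal to 17.5 CPM, and 33.6% of the genes have fewer reads. Both lie below the median of the table and well inside its range, which runs from -2.07 to 14.56 on the log2 scale.

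**Figure D1:**
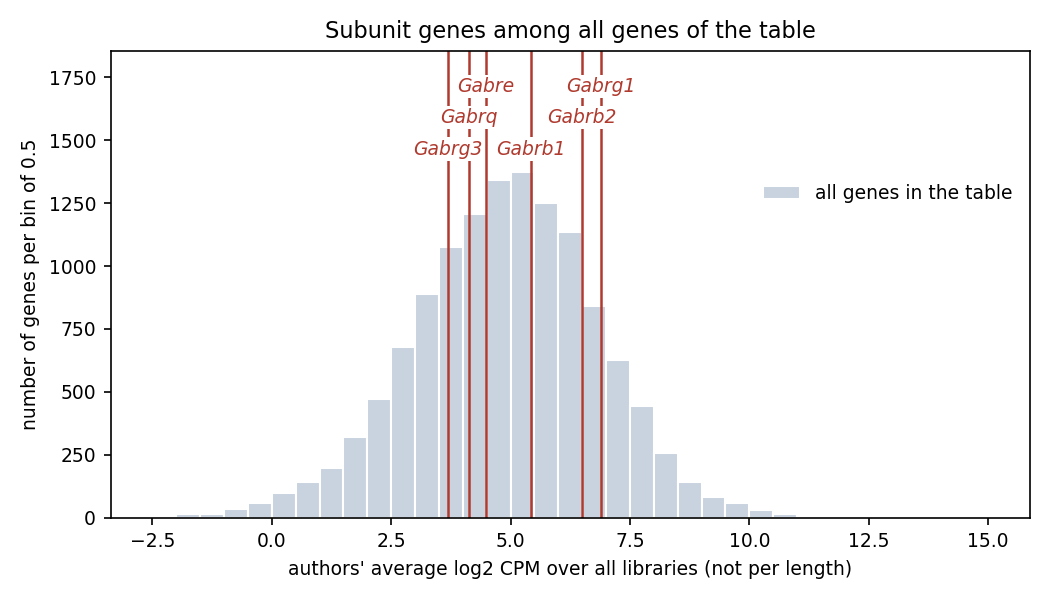
Histogram of the authors' average log2 CPM, taken as over all libraries, for the 12828 genes. The x axis has bins of 0.5 and the y axis gives the number of genes. A red line marks each of the 6 subunit genes. *Gabrg3*, *Gabrq* and *Gabre* lie left of the median of 4.94, and *Gabrb1*, *Gabrb2* and *Gabrg1* lie right of it.

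Subunit genes lie in clusters, an arrangement shared by the GABA-A family in mammals. Coordinates are those of the authors' table, on Rnor_6.0, and all 6 genes are listed as protein-coding. On chromosome 14, *Gabrb1* runs from 38643385 to 39112600 and *Gabrg1* from 39964588 to 40049354. *Gabra4* and *Gabra2*, which encode alpha subunits, lie between them, and these 4 genes cover 1406 kb. The gap from *Gabrb1* to *Gabra4* is 41.9 kb, and that from *Gabra2* to *Gabrg1* is 166.3 kb.

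On chromosome 10, *Gabrb2* runs from 27973681 to 28187565. On chromosome X, *Gabre* runs from 152218707 to 152237361 and *Gabrq* from 152852506 to 152864975, on either side of *Gabra3*, the alpha3 subunit gene. The gaps to *Gabra3* are 177.3 kb and 210.0 kb. *Gabre* and *Gabrq* are compact genes, with spans of 18.7 and 12.5 kb, whereas the other 4 genes span 84.8 to 653.4 kb. In the gaps between *Gabre*, *Gabra3* and *Gabrq*, and in those between the 4 genes on chromosome 14, 0 other genes of the table lie wholly inside.

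On chromosome 1, *Gabrg3* runs from 112158519 to 112811936, at 22.0 kb from *Gabra5*, the alpha5 subunit gene. The table also lists *Luzp2*, a leucine zipper protein gene, from 111849998 to 113527735 on the same chromosome, a model of 1678 kb that encloses both of these subunit genes. *Luzp2*, named after its values were seen, has an average log2 CPM of 6.52. The methods describe the libraries as strand specific, but neither the strand of these gene models nor the strand setting of the read counting is given in the sources used here, and the part of this overlap in the *Gabrg3* value was not tested. None of the other 5 genes overlaps another gene of the table.

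**Figure D2:**
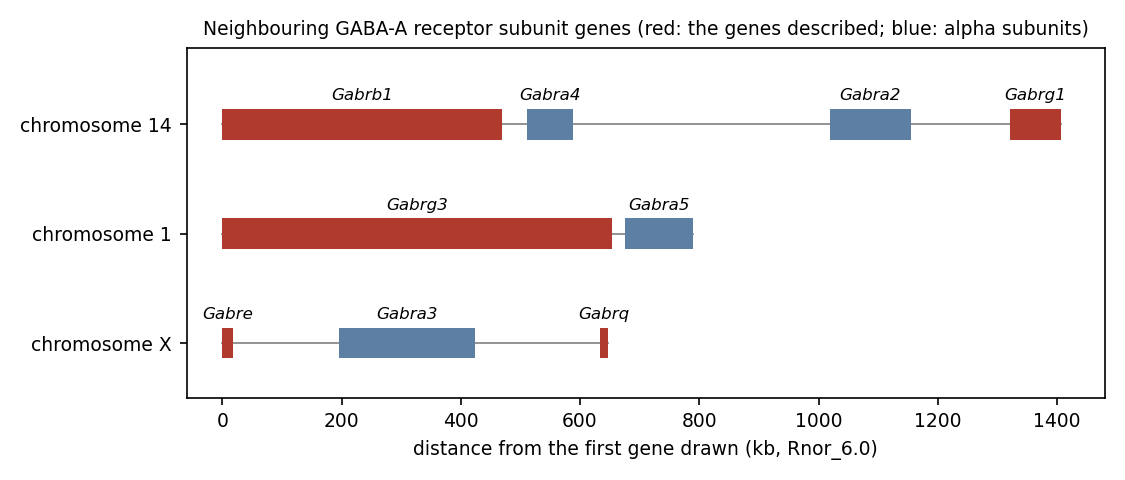
Map of subunit genes on chromosomes 14, 1 and X, with the distance in kb from the first gene drawn in each row on Rnor_6.0 (x axis). Red bars are *Gabrb1*, *Gabrg1*, *Gabrg3*, *Gabre* and *Gabrq*, and blue bars are alpha subunit genes near them; *Gabre* and *Gabrq*, of 18.7 and 12.5 kb, are short beside the 653.4 kb of *Gabrg3*.

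The start regions of the genes fall apart in base composition. RefSeq promoter records of the GRCr8 build, of which there are 33469, held all 6 genes, and the 250 bases before each annotated start were examined. The GC content was 78.0% for *Gabrg3*, 69.6% for *Gabre* and 68.0% for *Gabrq*, and 98.2%, 91.3% and 89.1% of all promoter records have a lower one. It was 49.2% for *Gabrb1*, 48.4% for *Gabrg1* and 43.2% for *Gabrb2*, all below the median of 51.2%. CG dinucleotides, the sites of DNA methylation in mammals, numbered 33 for *Gabrg3*, 20 for *Gabre* and 17 for *Gabrq*. They numbered 8 for *Gabrb1*, 8 for *Gabrb2* and 6 for *Gabrg1*, against a median of 5 over all records. The records were not filtered by gene type or by whether the gene had reads in these libraries.

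The sequence before the start of *Gabre* and of *Gabrg1* is shown as 1 example of each kind, since in both at least 150 bases lie before every RefSeq model of the gene. The stretch of *Gabre* is chrX:155120822-155120971 of GRCr8 on the minus strand, 150 bases with 15 CG. That of *Gabrg1* is chr14:37750042-37750291 of GRCr8 on the plus strand, 250 bases with 6 CG. Both are printed 5′ to 3′, and capitals mark each CG.
Gabre: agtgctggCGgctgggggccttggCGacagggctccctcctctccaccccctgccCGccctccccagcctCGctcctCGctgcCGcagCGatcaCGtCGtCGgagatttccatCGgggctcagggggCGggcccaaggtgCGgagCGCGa
Gabrg1: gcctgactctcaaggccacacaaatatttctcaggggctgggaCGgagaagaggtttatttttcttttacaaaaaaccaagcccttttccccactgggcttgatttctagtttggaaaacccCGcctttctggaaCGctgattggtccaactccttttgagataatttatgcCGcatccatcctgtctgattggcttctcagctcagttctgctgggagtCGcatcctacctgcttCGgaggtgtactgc

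The same 250-base windows were searched on both strands for 4 short motifs, none of which contains another. The GC box (GGGCGG) occurred before *Gabrg3*, *Gabre* and *Gabrq* and in 30.5% of all records. CCAAT occurred before *Gabrb1*, *Gabrg1* and *Gabrq* and in 34.0% of all records. The TATA box (TATAAA, in 12.9% of all records) and the E-box (CACGTG, in 5.6%), which clock transcription factors are known to bind, occurred before 0 of the 6 genes. For *Gabrb1*, *Gabrb2*, *Gabrg3* and *Gabrq* the whole window lies inside a longer RefSeq model of the same gene, and for *Gabre* 100 of the 250 bases do, so that the annotated start of these 5 genes is not the outermost one.

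**Figure D3:**
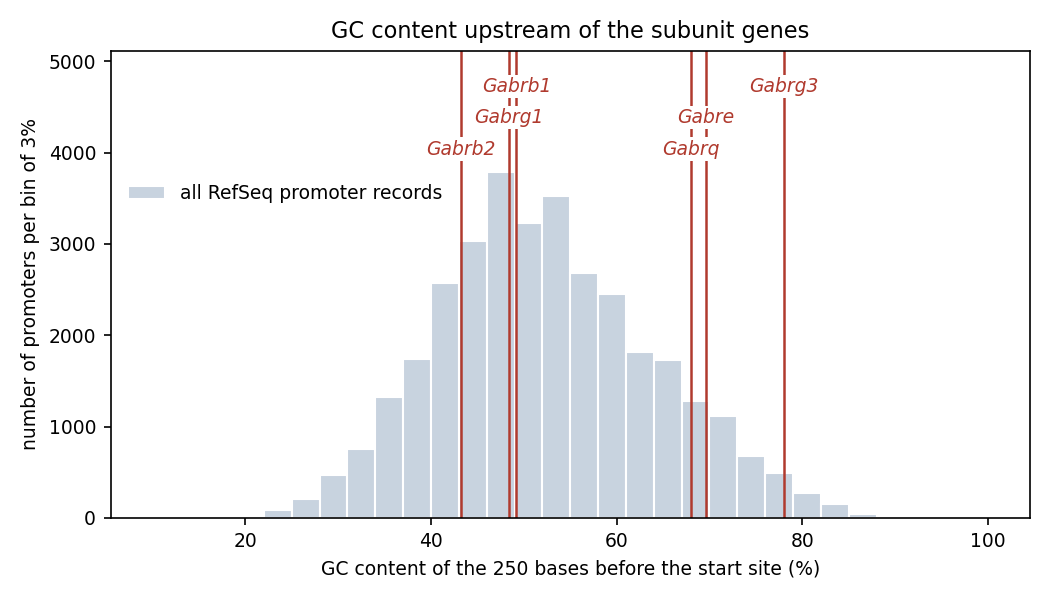
Histogram of the GC content of the 250 bases before the annotated start for 33469 RefSeq promoter records (x axis, percent, bins of 3%; y axis, number of records), with a red line at each subunit gene. *Gabrg3*, *Gabre* and *Gabrq* lie between 68.0% and 78.0%, and *Gabrb1*, *Gabrg1* and *Gabrb2* between 43.2% and 49.2%.

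The subunits work with other genes of GABA transmission, and 33 of 39 such genes on a list by function that holds no GABA-A subunit have a row in the table. *Gabrd*, the delta subunit gene of receptors outside synapses, has 11.8 CPM. The alpha subunit genes near the genes described have 93.6 CPM (*Gabra4*), 118 CPM (*Gabra2*), 78.2 CPM (*Gabra3*) and 65.8 CPM (*Gabra5*).

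All 17 genes of receptor clustering and trafficking were listed, from 25.9 CPM for *Lhfpl4*, a partner of synaptic GABA-A receptors, to 601 CPM for *Hap1*. *Gphn*, the scaffold gephyrin, has 90.8 CPM. Of 9 genes that make, load, take up or break down GABA, 8 were listed, with 444 CPM for *Gad1* and 812 CPM for *Gad2*, the enzymes that make GABA. The chloride carriers *Slc12a2* and *Slc12a5*, which set the chloride gradient through the channel, have 325 and 398 CPM. Of 5 genes of neurosteroid synthesis, whose products act on these receptors, 3 were listed, from 2.76 CPM for *Tspo* to 24.5 CPM for *Srd5a1*. For the GABA-B receptor, the metabotropic GABA receptor, both subunit genes were listed, *Gabbr1* with 1280 CPM and *Gabbr2* with 265 CPM. The other 3 genes on its list of 5, *Kctd8*, *Kctd12* and *Kctd16*, were not.

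The tissue was checked against marker lists. Of 12 ARC markers 9 were listed, from 1.06 to 65.0 CPM with a median of 5.47 CPM. The 2 highest were *Cartpt* and *Pomc*, with 65.0 and 25.4 CPM, neuropeptide genes of ARC neurons that restrain feeding. *Esr1* had 22.4, *Tac3* 20.3, *Tbx3* 5.47 and *Prlr* 4.63 CPM. The lowest were *Agrp* with 2.67, *Ghrh* with 2.03 and *Kiss1* with 1.06 CPM. Which nucleus the reads of these markers came from was not tested. *Npy*, a defining ARC peptide gene, has no row in the table used here. All 9 markers of other hypothalamic nuclei were listed, from 3.69 to 603 CPM (*Pmch*) with a median of 51.3 CPM. Markers of regions outside the hypothalamus were listed as well, some of which hypothalamic neurons are known to express too. All 8 striatum markers were listed, from 19.2 to 205 CPM (*Penk*) with a median of 51.9 CPM. Of 8 markers of cerebral cortex and hippocampus 6 were listed, from 4.48 to 178 CPM (*Nrgn*) with a median of 18.6 CPM. All 6 thalamus markers were listed, from 1.40 to 272 CPM (*Slc17a6*) with a median of 33.2 CPM. Neuron markers reached 1390 CPM (*Snap25*), astrocyte markers 1200 CPM (*Aqp4*) and oligodendrocyte markers 6160 CPM (*Mbp*). The part of other regions and of each cell type in the level of a subunit gene was not tested. In bulk tissue, fewer cells of a type and less RNA per cell cannot be told apart.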

How the data were processed

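The table holds 1 row per gene for the ARC of 10 dams, 5 per diet, grouped by the sample titles. Per the study's methods and the submitters' processing notes, poly-A libraries were sequenced as read pairs, trimmed with Trim Galore 0.5.0, aligned with STAR 2.6.0c to Rnor_6.0 with Ensembl gene models, and counted per gene with HTSeq 0.6.1p2. The authors deposited an average log2 CPM per gene, which is the value used here. The step that made it is not given in the sources used here. Its log base was checked: 2 to the power of the value sums to 1002152 over the 12828 genes.

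The table also holds 4 columns of the authors' own comparison of the diets (fold change, test statistic, p-value and false discovery rate), which were not used, and 10 per-library columns that match no sample label, which were not used either. The tests planned for the diets were therefore not run, and averages that do not separate the diets cannot show a difference between them.

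Linear CPM, the percentage of genes with fewer reads and gaps between genes were computed with Python 3.11.15, numpy 2.4.6, pandas 2.3.3 and matplotlib 3.10.9. GC content, CG counts and motifs of RefSeq promoter records (GRCr8, matched by symbol) were computed with the same tools. Only the percentage, GC content, CG count and motif search were tested on simulated data. No transcript lengths were at hand. The 6 genes and the lists were chosen with earlier results of these data known. Named are all 6 genes, other subunits near them and members of the lists. The naming rule also asked for genes past a p-value and genes of like pattern over the dams, which could not be had, and the values of some genes it selects are not reported here. Genes named beyond the rule, such as the lowest and highest of a list, were chosen after their values were seen.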

Additional observations from a re-analysis of the deposited data

How the results depend on the processing

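Dams were allocated to the diets at random, and the methods state no pairing of dams that share a replicate number. The same replicate numbers in the labels of both diets are therefore not evidence of matched dams. No paired analysis was possible because the columns per library carry no replicate number of the labels. For the same reason no other setting was tried for the diets: pseudocount, filter, scaling, replicate block and leaving out each dam. The adjustment and reference distribution of the deposited statistics were not varied either, because those statistics were not used. The level per kb was not computed for want of transcript lengths. Chosen after seeing the data, the percentage of genes with fewer reads was recomputed against smaller sets. Against the 12383 protein-coding genes it was 23.8% for *Gabrg3*, 31.9% for *Gabrq*, 38.7% for *Gabre* and 59.0% for *Gabrb1*. Against the 12462 genes whose log2 CPM averaged 1 or more the percentage was 23.4%, 31.7%, 38.6% and 59.0% for the same genes. Against the 8829 genes of at least 4, a set without the low genes and without *Gabrg3*, it was 3.5% for *Gabrq*, 13.3% for *Gabre*, 42.1% for *Gabrb1*, 71.3% for *Gabrb2* and 79.0% for *Gabrg1*. The first 2 sets left *Gabrb2* and *Gabrg1* within 0.6 percentage points of their values.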
